A study of Mus musculus with 4 samples.

Results

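The genes described here are 10 inhibitors of Wnt signalling, namely the secreted or cell-surface antagonists Notum, Wif1, Dkk2, Dkk3, Sfrp1 and Apcdd1 and the feedback inhibitors Nkd1, Axin2, Znrf3 and Rnf43. They were taken by gene symbol from a table of 16857 genes, and all 10 had values. Bulk RNA sequencing was done on 4 mouse adenoma colonoid lines, which are epithelial structures grown in culture, with 1 library per line. The G2 lines, numbered 157 and 236, were labelled Apcnull/LSL-mTERT-homo, and the G0 lines, numbered 75 and 179, were labelled Apcnull/LSL-mTERT-het. Both groups are labelled Apcnull and all 4 names carry Apcmin, so by its labels loss of Apc is shared by both groups. No line labelled with intact Apc was compared. The series compares colonoids with low and high chromosomal instability, but the labels used here do not tie these names to G0 or G2. Animal age is not given in the sources used here, and the labels leave unsaid whether the lines are from different animals. The p-values therefore measure only how these 4 cultures vary, which may be technical.

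Wnt ligands bind Frizzled and LRP receptors at the cell surface and thereby stop a complex built on Axin and Apc from marking beta-catenin for destruction. Beta-catenin that escapes enters the nucleus and, with TCF/LEF factors, activates target genes. Several targets are themselves inhibitors, which close feedback loops at the ligand, the receptor or inside the cell. In intestinal crypts the pathway maintains stem cells, and loss of Apc turns it on below the receptor, where inhibitors that act on the ligand or the receptor are upstream of the lesion.

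Totals recovered from the deposited values lay between 16545429 and 17901744 counts per library. Levels are normalized counts, that is counts divided by the authors' size factor, and replicates 1 and 2 are given in that order. Tert, whose allele the labels name, stood at 0.0 and 1.0 normalized counts in the G2 libraries, against 93.3 and 97.5 in the G0 libraries. Apc RNA was present in all 4 libraries, at 3340 and 2553 in G2 and 2708 and 1983 in G0 (limma adjusted p = 0.329). Loss of Apc function was not tested. Transcripts of the Y-linked genes Ddx3y, Uty, Eif2s3y and Kdm5d were present in both G2 libraries (296.2 to 526.4 normalized counts) and at 0 in both G0 libraries, so presence of Y transcripts and group cannot be told apart. Among 8 colon epithelium markers Epcam, Krt8, Krt18 and Krt19 were abundant in all 4 libraries. Krt20 was low, at 93.8 and 4.9 normalized counts in G2 and 1.0 and 0.0 in G0. Cdx2, the intestinal homeobox factor, fell to 270.3 and 186.7 normalized counts in G2, against 2395 and 3199 in G0 (adjusted p = 0.00043), while Cdh1 (E-cadherin) rose 1.80-fold. Vil1 (villin) fell to 1731 and 786.9 in G2, against 4734 and 6383 in G0, or 4.42-fold, and 7.06-fold without G2 replicate 1.

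RefSeq promoter sequences (GRCm38.p6, the mm10 assembly) matched 5 of the 10 members, namely Wif1, Dkk2, Nkd1, Axin2 and Rnf43, the last with 2 starts. The 250 bases before the listed start are shown 5′ to 3′ for the 4 of these genes whose RNA rose in G2. Wif1 lies at chr10:121033754-121034003, Dkk2 at chr3:132085042-132085291, Nkd1 at chr8:88527383-88527632 and Axin2 at chr11:108920099-108920348, all on the plus strand. The Wif1 start is the start of the gene and the Dkk2 start lies 26 bases inside it, whereas the Nkd1 and Axin2 starts are internal, 6.29 kb and 2.52 kb inside the gene as annotated. Of the 2 Rnf43 starts, whose windows are not shown, 1 is the start of the gene and 1 lies 36.8 kb inside it. Capitals mark the core of the TCF/LEF site (CTTTG), the GC box (GGGCGG) and the TATA box (TATAAA) on either strand.
Wif1: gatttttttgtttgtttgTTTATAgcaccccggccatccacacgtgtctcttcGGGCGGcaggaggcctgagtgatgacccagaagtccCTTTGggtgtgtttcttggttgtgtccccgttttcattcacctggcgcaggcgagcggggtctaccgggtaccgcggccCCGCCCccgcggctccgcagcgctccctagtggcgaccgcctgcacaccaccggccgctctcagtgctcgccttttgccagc
Dkk2: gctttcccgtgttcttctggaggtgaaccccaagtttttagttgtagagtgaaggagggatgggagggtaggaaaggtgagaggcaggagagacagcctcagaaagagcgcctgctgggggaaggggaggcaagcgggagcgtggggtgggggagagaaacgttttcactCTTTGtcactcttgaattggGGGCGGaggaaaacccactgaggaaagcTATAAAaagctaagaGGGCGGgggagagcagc
Nkd1: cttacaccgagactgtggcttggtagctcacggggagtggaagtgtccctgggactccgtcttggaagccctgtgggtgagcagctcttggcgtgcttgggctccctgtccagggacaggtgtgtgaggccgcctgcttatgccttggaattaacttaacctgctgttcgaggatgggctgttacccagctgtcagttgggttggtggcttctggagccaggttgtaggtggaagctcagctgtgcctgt
Axin2: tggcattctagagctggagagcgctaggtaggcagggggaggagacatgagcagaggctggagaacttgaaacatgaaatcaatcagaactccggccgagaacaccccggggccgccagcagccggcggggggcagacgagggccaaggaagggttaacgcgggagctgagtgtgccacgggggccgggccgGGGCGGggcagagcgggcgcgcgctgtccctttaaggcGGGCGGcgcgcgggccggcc

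The full TCF/LEF site was searched as CTTTG followed by AA, AT, TA or TT on both strands. It was found in 0 of the 6 member windows and in 14.8% of all 32851 promoter windows of this length. Among the 13904 windows of genes tested the share was 10.5%. The 5-letter core of the site, which every form of the full site contains, occurred in the Wif1 and Dkk2 windows and in 48.6% of all windows. GC boxes occurred in the Wif1, Dkk2 and Axin2 windows and in 32.7% of all windows, and the TATA word in Wif1 and Dkk2 and in 12.4%. In Dkk2 the TATA word began 32 bases before the start, and in Wif1 its reverse complement began 232 bases before the start. The cores, the GC box and the TATA box were searched after the windows had been read. A match is a run of letters, and its absence says only that these letters are not in this window.

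Across the members, 5 of 10 rose in G2 and 0 fell, where 5.93% of the 13981 genes tested rose, 4.56% fell and 10.5% were called in either direction (limma, adjusted p under 0.05). The 5 were the secreted inhibitors Wif1, Dkk2 and Notum and the feedback genes Nkd1 and Axin2. The G2 libraries both lay above both G0 libraries for 9 of 10 members, against 29.2% of all genes tested, and below them for Sfrp1 (28.6% of all genes), whose counts of at most 3 per library were too low to show a difference. The groups were apart in either direction for 57.8% of all genes. An unadjusted p under 0.05 was found for 8 members and for 26.8% of all genes. The median log2 fold change was 1.55 over the members and 0.01 over all genes. The members were chosen with earlier results of these data known, so these shares describe the list and do not test it. The 3 secreted genes that rose had ratios of 6.02 or more, and Axin2 and Nkd1 had ratios of 1.76 and 3.65. When any 1 of the 4 libraries was left out, limma called 0 members and 0 genes, with 6 to 8 of the 10 members and 2376 to 3221 of all genes at an unadjusted p under 0.05. The lone library was then assumed to vary like the other group.

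**Figure D1:**
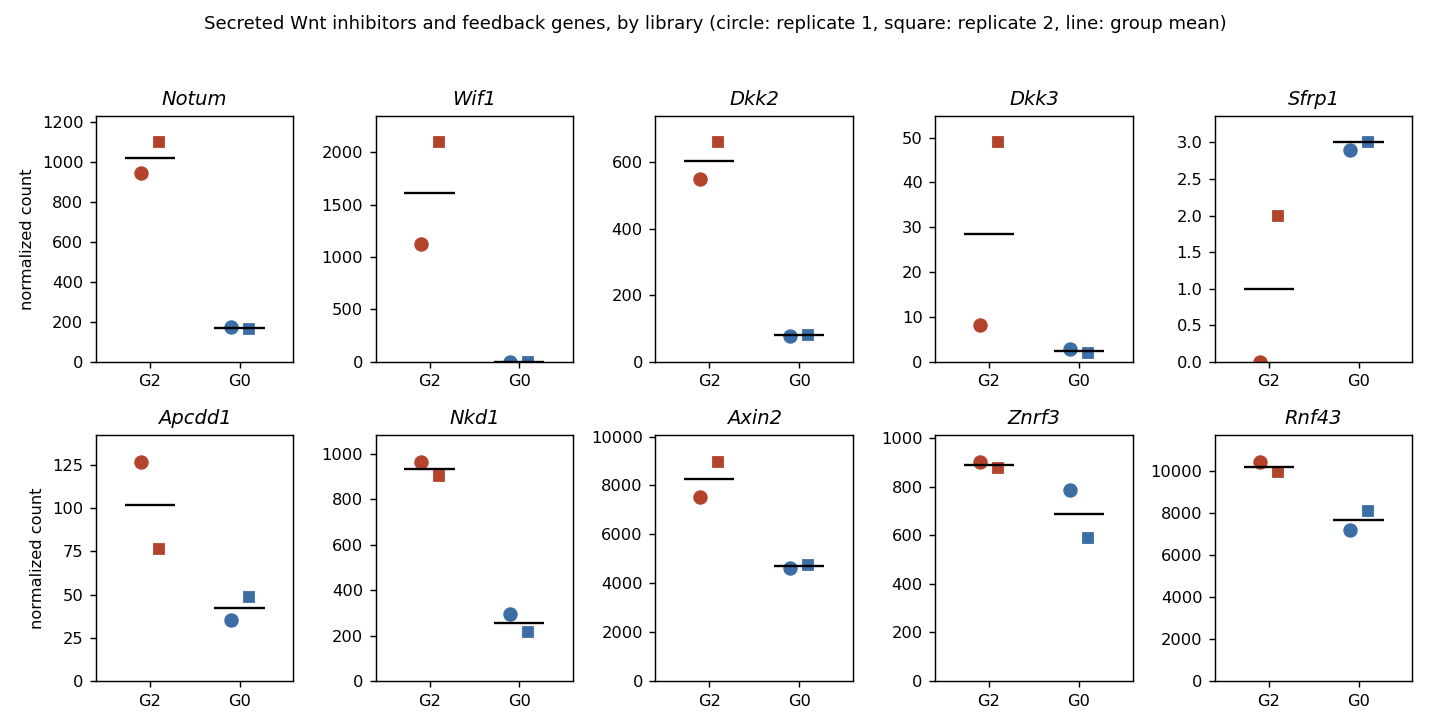
Normalized count of each of the 10 members (vertical axes, each from 0) in the G2 and G0 libraries, with a circle for replicate 1, a square for replicate 2 and a line at the group mean. The G2 points lie above the G0 points for every gene except Sfrp1, whose levels were at most 3.0.

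Notum encodes a secreted carboxylesterase that removes the lipid from Wnt ligands and so inactivates them; it lies on chromosome 11 from 120653788 to 120661193, minus strand. It had 945 and 1097 normalized counts in the G2 libraries, against 174.8 and 164.6 in the G0 libraries. The groups lay far apart relative to their own spread, since replicates differed by 1.16-fold in G2 and 1.06-fold in G0. Notum was 6.02-fold higher in G2, a log2 fold change of 2.58 (SE 0.17, adjusted p = 0.000475), and without 1 library this was 2.47 to 2.69 (adjusted p = 0.119 to 0.159). Exons of the antisense genes Notumos and Myadml2os overlap Notum, and the strand setting is not given in the sources used here, so their reads cannot be told apart from those of Notum.

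Wif1 encodes a secreted protein whose WIF domain binds Wnt ligands; it lies on chromosome 10 from 121034004 to 121100642, plus strand. Its normalized counts were 1125 and 2095 in G2, against 2.0 and 0.0 in G0. The gene was therefore near absent in G0, with 2 counts over both libraries, and clearly present in both G2 lines, which differed by 1.86-fold. The ratio of the means was 1640, but those 2 counts leave it imprecise, with a 95% exact counting interval of 448 to 13400, and the log2 fold change 9.80 (SE 0.57, adjusted p = 0.000322). Without G0 replicate 2 the ratio was 820, and without G0 replicate 1, where the remaining G0 library had a count of 0, Wif1 was at least 528-fold higher against a floor of 3 counts. Its adjusted p was 0.119 to 0.155 when 1 library was left out.

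Dkk2 encodes a secreted Dickkopf protein that binds the LRP co-receptors; it lies on chromosome 3 from 132085266 to 132180304, plus strand. Normalized counts of Dkk2 were 548.6 and 658.8 in G2, against 76.6 and 81.3 in G0. Replicates differed by 1.20-fold in G2 and 1.06-fold in G0, and the groups were separate. The ratio was 7.65 and the log2 fold change 2.91 with an SE of 0.21 (adjusted p = 0.000517; 0.119 to 0.159 without 1 library).

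Dkk3, a divergent member of the Dickkopf family, was low in every library. It had 8.1 and 48.9 normalized counts in G2, against 2.9 and 2.0 in G0. Most of its G2 signal came from replicate 2, with 50 counts, against 8 counts in G2 replicate 1. The ratio was 11.4, with a counting interval of 4.67 to 36.8 that leaves out the difference between lines, and it was 3.24 without G2 replicate 2 and 19.6 without G2 replicate 1. Its log2 fold change of 2.62 had an SE of 0.84 and did not pass (adjusted p = 0.0995).

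Sfrp1 encodes a secreted Frizzled-related protein that binds Wnt ligands. Only 0 and 2 counts were found in the G2 libraries, against 3 and 3 in the G0 libraries. These counts are at or under the floor of 3 per library, so a difference was not detectable at this depth and no fold is given (adjusted p = 0.385). Apcdd1 encodes a membrane glycoprotein that interacts with Wnt ligands and LRP5. It had 127.1 and 76.2 normalized counts in G2, against 35.3 and 48.8 in G0. The groups did not overlap, but the G2 lines differed by 1.67-fold. For Apcdd1 the log2 fold change of 1.23 (SE 0.37) did not pass (adjusted p = 0.0818).

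**Figure D2:**
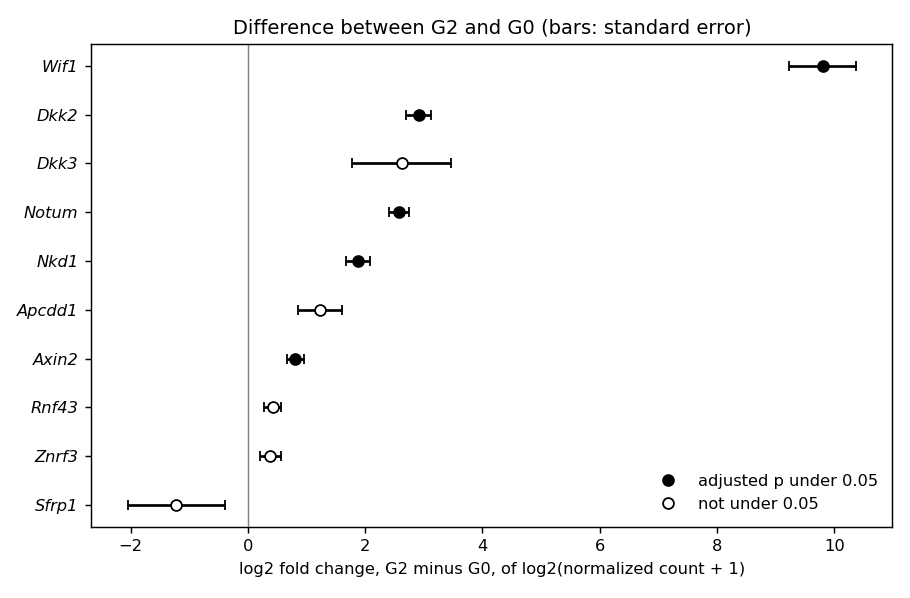
Log2 fold change of each member between G2 and G0 (horizontal axis, of log2(normalized count + 1)), with bars for the standard error; filled points passed the limma test at an adjusted p under 0.05. Wif1 stands at 9.80, the filled points of Dkk2, Notum, Nkd1 and Axin2 at 2.91, 2.58, 1.88 and 0.81, and Dkk3 and Sfrp1 have the widest bars.

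Among the feedback genes, Nkd1 encodes an intracellular protein that binds Dishevelled; it lies on chromosome 8 from 88521342 to 88594887. It stood at 966.1 and 902.2 normalized counts in G2, against 295.6 and 216.4 in G0. The G2 lines lay within 1.07-fold of each other and the G0 lines within 1.37-fold. Its ratio was 3.65 and its log2 fold change 1.88 with an SE of 0.20 (adjusted p = 0.0025; 0.147 to 0.178 without 1 library).

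Axin2 encodes a scaffold of the beta-catenin destruction complex and is a widely used readout of the pathway; it lies on chromosome 11 from 108917828 to 108950783. It had 7534 and 8977 normalized counts in G2, against 4613 and 4760 in G0. Both G2 lines exceeded both G0 lines, although the gene was already abundant in G0. The ratio was 1.76 and the log2 fold change 0.81 with an SE of 0.15 (adjusted p = 0.0171; 0.165 to 0.235 without 1 library, and 0.1 without the intensity trend). Exons of the antisense gene Gm11670 overlap Axin2 and could share its reads.

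Rnf43 and Znrf3 encode related transmembrane ubiquitin ligases that remove Frizzled receptors from the cell surface. Rnf43 had 10427 and 9912 normalized counts in G2, against 7184 and 8093 in G0. Its ratio was 1.33 and its log2 fold change 0.42 with an SE of 0.14, which did not pass (adjusted p = 0.117). Znrf3 stood at 904.6 and 877.8 normalized counts in G2, against 789.4 and 591.2 in G0. For both genes the groups did not overlap, and for Znrf3 the gap between the groups was smaller than the spread of the G0 lines. Znrf3 did not pass either (log2 fold change 0.38, SE 0.18, adjusted p = 0.221).

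Levels of different members were compared per kilobase of the principal transcript in GENCODE M21, as normalized counts per kb and without a test. In G2 the order of the mean levels was Rnf43 (2360 per kb), Axin2 (1938), Wif1 (702), Notum (461), Nkd1 (308), Dkk2 (163), Znrf3 (141), Apcdd1 (9.34), Dkk3 (8.48) and Sfrp1 (0.224). In G0 it was Rnf43 (1772), Axin2 (1100), Znrf3 (109), Nkd1 (84.3), Notum (76.7), Dkk2 (21.3), Apcdd1 (3.87), Dkk3 (0.741), Sfrp1 (0.685) and Wif1 (0.428). Wif1 thus stood below Rnf43 and Axin2 alone in G2, and last in G0. In G2 the library values of Wif1 (491 and 913 per kb) met those of Notum (427 and 496), and those of Apcdd1 and Dkk3 overlapped. In G0 the values of Znrf3 (125 and 93.7) overlapped those of Nkd1 (97.4 and 71.3), which in turn spanned those of Notum (79.0 and 74.4), and the values of Dkk3, Sfrp1 and Wif1, all under 1, overlapped. With merged exon lengths, an alternative chosen after seeing the data, Notum stood above Nkd1 in G0 and Dkk3 above Apcdd1 in G2.

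Against all 13746 tested genes with a transcript length, the mean percentile of the level per kb was 85.0 in G2 and 4.1 in G0 for Wif1. Notum stood at percentile 79.3 in G2 and 40.8 in G0, and Dkk2 at 55.3 and 25.2. Rnf43 and Axin2 were among the abundant transcripts in both groups, at 96.5 and 95.5 in G2 and at 94.6 and 91.0 in G0. The paralogues kept apart, with Rnf43 at 16.9 and 16.5 times the level of Znrf3 per kb in the G2 libraries and at 13.3 and 20.0 times in the G0 libraries.

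Summed over the 6 secreted or cell-surface members, the level was 1080 and 1609 normalized counts per kb in G2, against 105.3 and 102.1 in G0. These 6 made up 18.8% and 24.9% of the summed level of all 10 members in G2, against 3.42% and 3.13% in G0. The make-up of the sum differed too. Wif1 gave 45.4% and 56.8% of the secreted sum in G2, against 0.813% and 0% in G0, while Notum gave 39.6% and 30.8% in G2, against 75.0% and 72.9% in G0. Relative to Axin2 per kb, Notum stood at 0.242 and 0.235 in the G2 libraries and at 0.073 and 0.0666 in the G0 libraries. The shares of the replicates did not overlap between groups in any of these measures, which were not tested.

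**Figure D3:**
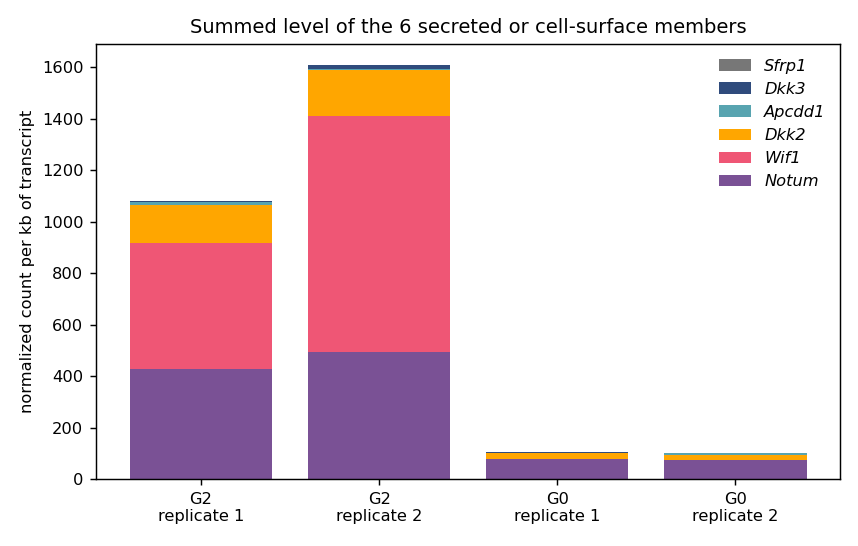
Stacked level of Notum, Wif1, Dkk2, Apcdd1, Dkk3 and Sfrp1 (vertical axis, normalized count per kb of transcript) in each library. The G2 bars reach 1080 and 1609, mostly from Wif1 and Notum, and the G0 bars 105.3 and 102.1, mostly from Notum.

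Secreted Wnt inhibitors are also made by stromal cells, so markers of other cell types were read beside them. Of 12 fibroblast or smooth muscle markers 11 had values, and their summed level was 234.0 and 483.8 normalized counts in G2, against 45.2 and 53.8 in G0. Most of the G2 sum was Acta2 (smooth muscle actin), which rose to 184.6 and 434.0 in G2, against 7.9 and 4.1 in G0 (adjusted p = 0.00172), a ratio of 51.9, or 31.0 without G2 replicate 2. The defining fibroblast markers Dcn and Pdgfra were at 0 in all 4 libraries, and Col1a1 and Col1a2 were at most 4.9. Col3a1 (a fibrillar collagen) was low but rose, at 7.1 and 6.8 in G2, against 0 in both G0 libraries (adjusted p = 0.0404). Of the 6 markers of this list that were tested 2 rose and 0 fell, where 5.93% of all genes tested rose and 4.56% fell. The others tested did not pass. Col1a1 had 1.0 and 2.0 in G2 and 4.9 and 4.1 in G0, and Vim 33.3 and 38.1 in G2 and 31.4 and 41.6 in G0. The smooth muscle markers Des and Myh11 were at most 2.0 and at most 5.0. Of 9 macrophage or lymphocyte markers 4 had values, with sums of 1174 and 1921 in G2 and 1130 and 2111 in G0, nearly all from Cd68. Ptprc was at 0 in all libraries, and Csf1r stood at 16.1 and 4.9 in G2, against 0 in both G0 libraries (limma adjusted p = 0.0431). Laptm5 had 7.1 and 23.5 in G2, against 1.0 and 1.0 in G0, and did not pass (limma adjusted p = 0.055). Of the 3 markers of this list that were tested 1 rose and 0 fell, beside the same 5.93% and 4.56% of all genes. Of 5 endothelial markers 3 had values, with sums of 48.4 and 46.9 in G2 and 3.9 and 4.1 in G0. Tek, an angiopoietin receptor, supplied nearly all of the endothelial sum and rose to 47.4 and 45.0 in G2, against 2.9 and 4.1 in G0 (ratio 13.2, adjusted p = 0.00587), whereas Pecam1 and Cdh5 were at most 2.0. Glial or neuronal markers, 4 of 5 with values, summed to 22.2 and 26.4 in G2 and 35.3 and 30.5 in G0, with S100b at 0. Paneth cell markers, 4 of 5 with values, summed to 2733 and 5561 in G2 and 2989 and 3903 in G0, mostly Mmp7, with Defa24 at 0 and Lyz1 at most 2.0. In bulk samples a larger share of cells of a type and more RNA per cell cannot be told apart, and the part of any such cells in the members' values was not tested.

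Other genes of the pathway were called in both directions. The counts for each list stand beside 5.93% of all genes tested that rose and 4.56% that fell. Of 13 other secreted or extracellular antagonists 8 had values, and limma called 0 of the 4 that passed the filter on low values, with 0 at an unadjusted p under 0.05 (median log2 fold change -0.69, against 0.01 over all genes). Among these 4, Igfbp4 was high in 1 G2 line only, at 133.1 and 442.8 normalized counts in G2 and 136.5 and 151.4 in G0. For the other 3 both G2 libraries lay below both G0 libraries, as for 28.6% of all genes tested. Of these, Sfrp2 had 16.1 and 9.8 in G2 and 23.6 and 18.3 in G0, and Dkkl1 4.0 and 2.9 in G2 and 8.8 and 8.1 in G0. Of 19 other intracellular or membrane inhibitors tested, 4 rose and 1 fell (median 0.09). Tle4, a Groucho-type corepressor of TCF factors, rose to 2062 and 1881 normalized counts in G2, against 1128 and 835.0 in G0 (adjusted p = 0.0147). Ctnnbip1, which blocks beta-catenin from binding TCF, rose 1.93-fold and Dact2, a Dishevelled-binding protein, rose 1.66-fold. Amer2, which binds Apc, rose to 25.2 and 25.4 in G2, against 1.0 and 4.1 in G0, while Dact1, a paralogue of Dact2, fell to 2.0 and 3.9, against 19.6 and 37.6. The ratio for Amer2 was 6.23 and 25.8 without G0 replicate 1 and G0 replicate 2. Adjusted p for Ctnnbip1, Dact2, Amer2 and Dact1 lay between 0.0249 for Dact1 and 0.0413 for Dact2.

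Of 25 other beta-catenin target genes tested, 4 rose and 3 fell, with a median log2 fold change of -0.06. Prox1, a homeobox factor, rose to 889.5 and 927.6 normalized counts in G2, against 135.5 and 102.6 in G0 (adjusted p = 0.000508), which is close in size to the rise of Dkk2 (log2 fold changes 2.93 and 2.91). The others that rose were Tbx3, Jun and Slc12a2, at log2 fold changes of 2.86, 1.01 and 0.84, with the ratio for Tbx3 at 6.79, or 13.5 without G0 replicate 2, and those that fell were Lrig1, Tnfrsf19 and Tcf7, at -1.06, -0.86 and -0.63. Slc12a2 was named after its values were seen. Lgr5, a target that marks crypt stem cells, was also chosen after its values were seen and had 1034 and 1312 normalized counts in G2 and 1120 and 1295 in G0 (adjusted p = 0.876).

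Of 11 Wnt ligand genes tested, 1 rose and 1 fell. Wnt16 rose to 13.1 and 30.3 normalized counts in G2, against 2.0 and 2.0 in G0 (adjusted p = 0.0321). Wnt5b fell to 1.0 and 5.9 in G2, against 57.0 and 37.6 in G0 (adjusted p = 0.0189). The ratio for Wnt16 was 10.9, and 6.56 without G2 replicate 2, and Wnt5b was 13.8-fold lower, or 8.06-fold and 46.9-fold lower without G2 replicate 1 and G2 replicate 2. Wnt7b, the tested ligand with the most counts, likewise chosen with its values in view, had 8162 and 6746 in G2 and 6657 and 7768 in G0. Of 19 receptor genes tested, Fzd3 and Fzd7 rose and Ror2, Fzd10 and Fzd1 fell (adjusted p between 0.00491 and 0.0354; median -0.18). limma called 0 of 4 secretion genes and 0 of 18 destruction complex and nuclear effector genes, with 0 and 4 at an unadjusted p under 0.05. Of those 18, however, 17 had a log2 fold change above 0, with a median of 0.25, against 7138 of 13981 genes overall. Over these 7 lists together 19 of 100 tested genes were called, 11 higher and 8 lower. Over all genes tested 10.5% were called, 5.93% higher and 4.56% lower.

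**Figure D4:**
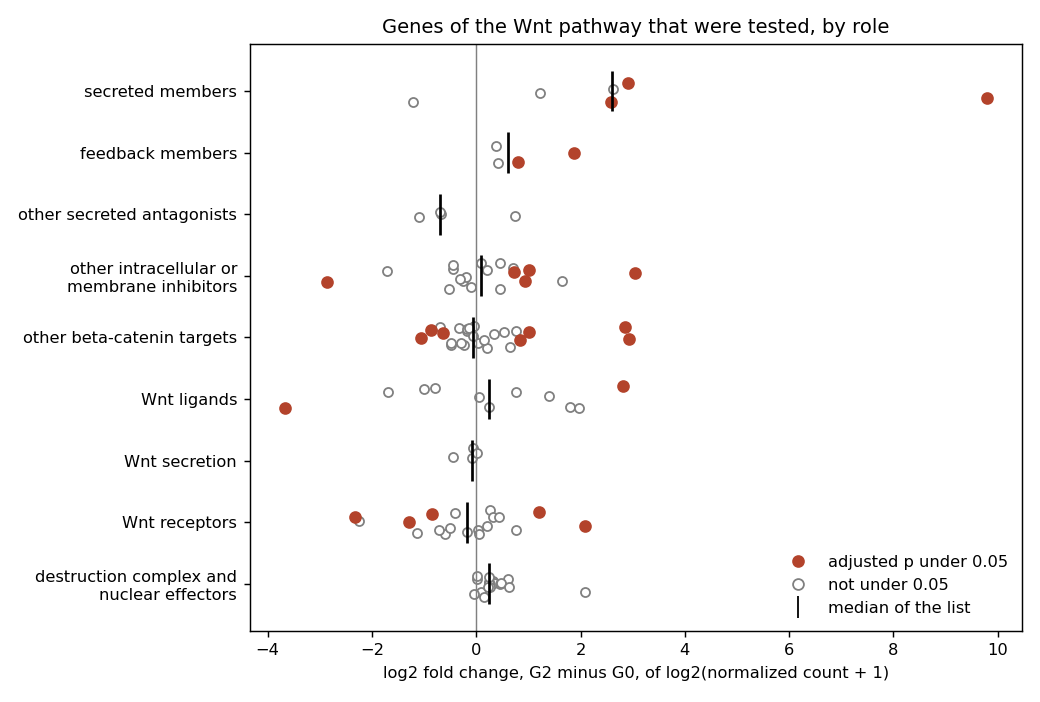
Log2 fold change between G2 and G0 (horizontal axis) of every tested gene in 9 groups of the Wnt pathway, 1 point a gene, filled where the adjusted p was under 0.05, with a black line at each median. The medians of the secreted and feedback members are 2.60 and 0.61, and those of the other lists lie between -0.69 and 0.25.

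The members are spread over several chromosomes, and Notum, Axin2, Znrf3 and Rnf43 share chromosome 11. The nearest tested gene on each side of every member was also read, a choice made after the members' values were known. Of these genes only Snx20 and Papss1 passed the test, where 10.5% of all genes tested were called. Beside Wif1, Lemd3 and Tbc1d30 had log2 fold changes of 0.24 and -0.18 (adjusted p = 0.426 and 0.633), against 9.80 for Wif1. Beside Notum, Pycr1 and Aspscr1 stood at 0.88 and 0.42 (adjusted p = 0.057 and 0.154). Snx20, 31.7 kb from Nkd1, rose to 762.4 and 702.8 normalized counts in G2, against 294.6 and 354.5 in G0 (adjusted p = 0.00825), whereas Brd7 on the other side had a log2 fold change of -0.04. Papss1, 442 kb from Dkk2, rose by a log2 fold change of 0.90 (adjusted p = 0.0206). The neighbours of Axin2, Cep112 and Rgs9, had log2 fold changes of 1.19 and 1.23 (adjusted p = 0.0571 and 0.258), against 0.81 for Axin2. The nearest gene to Znrf3 was another Wnt inhibitor, Kremen1, a receptor for Dickkopf proteins 14.6 kb away, at 1023 and 1069 normalized counts in G2 and 1389 and 1634 in G0 (adjusted p = 0.064). Median log2 fold changes of the tested genes within 1 Mb of the 5 members that rose lay between 0.06 for Nkd1 and 0.16 for Dkk2. Within these windows 2 of 9 genes rose and 0 fell near Nkd1, and 2 of 11 rose and 0 fell near Dkk2. Near Wif1 2 of 17 rose and 3 fell, and near Notum 2 of 56 rose and 1 fell. Near Axin2 0 of 10 rose and 2 fell. Over all genes tested 5.93% rose and 4.56% fell.

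**Figure D5:**
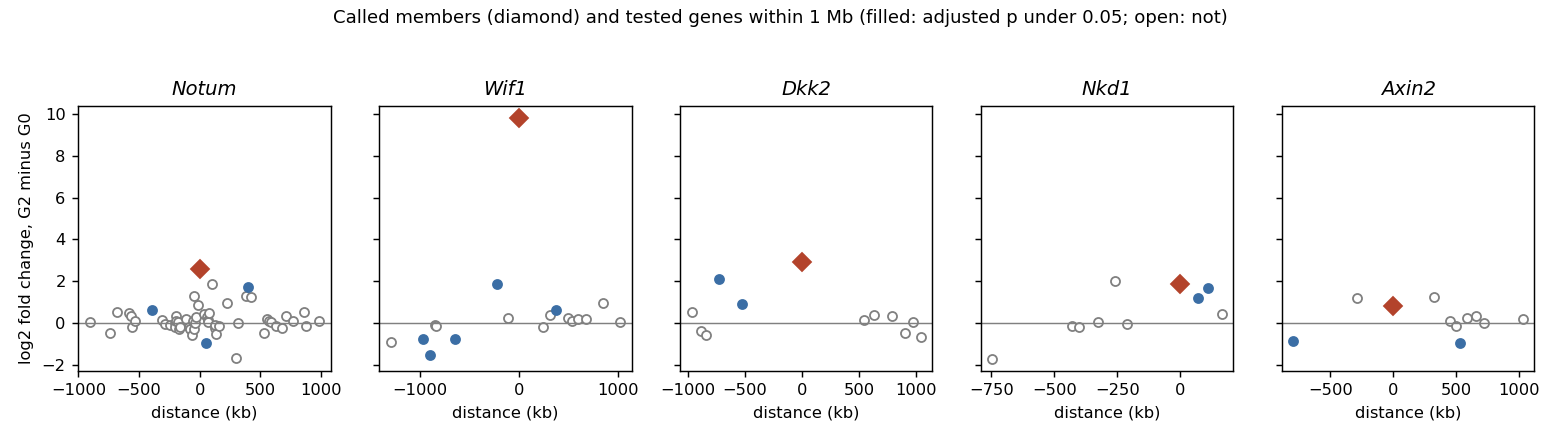
Log2 fold change between G2 and G0 (vertical axis) of tested genes within 1 Mb, by distance in kb between gene centres (horizontal axis), for the 5 members that rose, each a diamond at 0; filled circles had an adjusted p under 0.05. The diamonds of Wif1, Dkk2 and Notum lie above every neighbour, at 9.80, 2.91 and 2.58. Those of Nkd1 (1.88) and Axin2 (0.81) do not, with Adcy7 at 1.99 near Nkd1 and Cep112 and Rgs9 at 1.19 and 1.23 near Axin2.

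The genes with the pattern most like each member over the 4 libraries were found by the root mean square difference of centred log2 values among 10509 named genes with a mean of at least 50. Closest to Notum were Sox21, a SOX transcription factor, and Slc22a17, at differences of 0.0417 and 0.0592. Sox21 had 4112 and 4774 normalized counts in G2, against 802.2 and 696.8 in G0. For Dkk2 the closest was Rgs10, a regulator of G protein signalling (0.13). Tnip3, an inhibitor of NF-kappaB, and the histone variant gene H2afy2 were closest to Nkd1 (0.0437 and 0.104), and Cir1, a transcriptional corepressor, and Skap2, an adaptor protein, to Axin2 (0.0234 and 0.0373). No gene was close to Wif1, for which the nearest were the Y-linked Kdm5d and Eif2s3y, at 0.746 and 0.83. These 2 distances rest largely on the Wif1 G0 values of 2.0 and 0.0, which are near the floor, and on its 1.86-fold spread in G2. With 4 libraries many genes share a pattern, so this likeness is a description.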

How the data were processed

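Per the labels' protocols, column-purified RNA was made into libraries by a company. Tools named in the submitters' processing notes are DESeq2 1.32.0, StringTie 2.1.1, HISAT2 2.1.0, bcl2fastq 2.20.0 and R 3.5.2, with mm10 as genome; for annotation, strand setting and read filters the sources used here give nothing. Per the file headers there are 4 columns, 1 per library; the authors deposited values on a log2 scale with a shared lowest value of 6.508, as a variance-stabilizing transformation gives. It was inverted with that value as its constant, and 1 factor per library turned 100% of values into whole numbers within 0.001. StringTie reports estimates, so these counts can be rounded and no count model was run.

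An eBayes fit with an intensity trend (limma 3.58.1, R 4.3.3) was run on log2(normalized count + 1) for the 13981 genes with a mean of at least 1, with group as the only term, two-sided and Benjamini-Hochberg adjusted. This scale understates changes of low genes. The design had not fixed how a variance-stabilized scale would be inverted. Ratios are of mean normalized counts; 95% exact intervals and the 3-count floor cover counting error only. Alternatives were another pseudocount, other filters, the deposited scale, library-total scaling, no trend, a replicate block and each library left out. Recovery and fit were tested on simulated data. All members are named; of each list, called genes (at most 6) and up to 3 others with the smallest p could be named, and genes outside this rule are said to be so or were taken by position. Not every gene that these rules allow is reported here. Members and lists were chosen with earlier results of these data known. Gene positions are RefSeq GRCm38.p6, and GENCODE M21 lengths covered 98.3% of genes tested.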

Additional observations from a re-analysis of the deposited data

How the results depend on the processing

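All 10 members kept the sign of their log2 fold change under each of the alternatives that gave a value; Sfrp1 gave none with a mean of at least 5. Their sizes moved: with a pseudocount of 5 the log2 fold change was 8.03 for Wif1, 1.83 for Dkk3 and -0.44 for Sfrp1, against 9.80, 2.62 and -1.22. The deposited log2 scale, whose floor compresses low values by construction, gave 4.13 for Wif1, 1.79 for Dkk2, 0.49 for Dkk3 and Apcdd1 and -0.16 for Sfrp1, and 1.87, 1.41, 0.79, 0.31 and 0.41 for Notum, Nkd1, Axin2, Znrf3 and Rnf43. Of the 5 members that rose, Notum, Wif1, Dkk2 and Nkd1 passed under all 7 alternatives that kept every library, and Axin2 under 6, missing without the intensity trend (adjusted p = 0.1). With any 1 library left out, the counts of called genes, called members and called genes of the 7 other Wnt lists were 0 to 0, against 1467, 5 and 19. Without the trend 623 genes and 3 list genes were called. With the replicate number as a block, 3503 genes, 8 members and 39 list genes were called, Dkk3, Apcdd1 and Rnf43 being added (adjusted p = 0.0132, 0.0127 and 0.0348). The labels do not say that a number marks a pairing, and the differences between replicates correlated by 0.109 between groups over genes. Rnf43 stood at 16.7 times Znrf3 per kb in G2, and at 13.7 times with merged exon lengths. The cause of these changes was not tested. Low counts limit Sfrp1, Dkk3 and the G0 level of Wif1.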
